A study of Mus musculus with 16 samples.

Results

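The genes described here are 38 chaperones, folding enzymes and stress sensors: 15 chaperones and folding enzymes of the endoplasmic reticulum (ER), 9 genes of ER-associated degradation (ERAD), the translocon and the XBP1 pathway, 11 cytosolic heat shock genes and 3 mitochondrial chaperones. They were chosen by name, and all 38 were found by symbol among the 38918 features of the tables. At least 1 CPM, a read count per 1000000 exon reads, in any condition was reached by 36 of them and by 11122 of all features. RNA came from mouse pre-B cells, the precursors of B lymphocytes that carry a pre-B cell receptor. All 4 groups lack the adaptor BLNK (Blnk-/-) and carry a retroviral BLNK fused to ERt2, an oestrogen receptor domain that makes the fusion inducible with tamoxifen. One group is the control and the others were stimulated for 0.5, 1.5 or 5 h, in a study of genes regulated after pre-B cell receptor signalling. Strain, age, the promoter of the construct, the number of animals or cell clones, and whether the control received a vehicle are not stated in the labels. The stimulated state is BLNK restored through a retroviral fusion, whose level is not given here, and not the endogenous protein.

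Proteins that enter the ER are bound by BiP, glycosylated, held by the lectin chaperones calnexin and calreticulin, and given disulphide bonds by protein disulphide isomerases. Chains that fail to fold are passed back to the cytosol by ERAD and degraded. The sensors IRE1 (Ern1), PERK (Eif2ak3) and ATF6 report unfolded protein. IRE1 splices the Xbp1 mRNA, PERK slows translation and favours ATF4, and released ATF6 and XBP1 act on genes of ER chaperones and ERAD. In B lineage cells XBP1 is best known for its part in plasma cells, which secrete antibody. In the cytosol, HSF1 drives HSP70 and HSP90 genes under proteotoxic stress, and HSP60, HSP10 and mortalin fold proteins inside mitochondria. The counts are per gene, so spliced and unspliced Xbp1 mRNA were not separated.

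The 16 samples are 4 sequencing lanes of each of 4 libraries, summed to 1 library per condition, so there is no replicate of any condition and no test was run. The libraries held from 30746189 total exon reads at 5 h to 34533362 in the control. Intervals in brackets are exact 95% Clopper-Pearson intervals of a ratio of CPM. They cover counting error only, since reads that carry no molecular identifier can be copies of 1 molecule. Between lanes of a library, chi-square per degree of freedom over the 36 members was 0.785 to 1.18, so lanes differed by about sampling noise. A count of 0 allows up to 3 counts, or 0.0869 to 0.0976 CPM. The 3 stimulated libraries are set against the same control, so their ratios share its error. All 7 pre-B cell markers found passed 1 CPM, with a sum of 12088, 11401, 10438 and 9843 CPM in the control, 0.5, 1.5 and 5 h libraries. Ighm held 5997 CPM of the control sum. At 5 h 6 of these markers were below control and 1 above, Pax5, which was at 290, 417, 353 and 396 CPM in the same order. The 6 T and NK cell markers summed to 0.232 to 0.561 CPM, with Ncr1 at 0, and the 5 stromal markers to 0.561 to 1.62 CPM, with Cxcl12 at 0. The 5 erythroid and platelet markers found summed to 2.54 to 2.98 CPM. The 7 myeloid markers summed to 72.9, 70.0, 62.0 and 39.5 CPM, nearly all of it Itgam. Plasma cell markers summed to 381 to 407 CPM, most of it Mzb1 and the rest nearly all Sdc1 and Slamf7. Of the same list, Prdm1 and Tnfrsf17 were under 1 CPM in every library, and Igj was at 0.943 to 1.62 CPM. In a bulk sample, fewer cells of a type and less RNA per cell cannot be told apart.

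Promoter sequences are shown first because the groups of members differ in them. RefSeq windows on GRCm38.p6, from 250 bases before to 50 after a gene's start, were matched by symbol for 30 of the 38 members. A RefSeq start can differ from the end of the deposited gene span. The Hspa5 and Hspd1 sites given below come before the RefSeq start but lie inside the deposited span. The ER stress response element, searched on either strand as CCAAT, any 9 bases and CCACG, joins a site of the factor NF-Y to one that ATF6 can bind. It was found for 8 of 30 members, which held 35 windows, against 0.119% of all 32851 windows. The members were chosen by name, so this difference is a description and not a test. It was present for 7 of 13 ER chaperones and folding enzymes and 1 of 8 genes of ERAD and the XBP1 pathway, and for 0 of 7 cytosolic and 0 of 2 mitochondrial members. These sites are given 5′ to 3′ with both boxes of the element in capitals. They lie at chr2:34772020-34772048 (plus strand) for Hspa5, chr10:86705528-86705556 (plus) and chr10:86705633-86705661 (minus) for Hsp90b1, chr8:84847070-84847098 (plus) for Calr, chr11:50325795-50325823 (minus) for Canx, chr12:17266486-17266514 (plus) for Pdia6, chr14:118937822-118937850 (plus) for Dnajc3, chr15:88819515-88819543 (minus) for Creld2 and chr19:6046527-6046555 (plus) for Syvn1.
Hspa5: cttcaCCAATcggaggcctCCACGacggg
Hsp90b1 near site: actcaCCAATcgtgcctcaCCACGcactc
Hsp90b1 far site: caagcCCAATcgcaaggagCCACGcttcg
Calr: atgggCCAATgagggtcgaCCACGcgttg
Canx: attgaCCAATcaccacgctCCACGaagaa
Pdia6: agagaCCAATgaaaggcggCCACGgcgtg
Dnajc3: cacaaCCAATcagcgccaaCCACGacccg
Creld2: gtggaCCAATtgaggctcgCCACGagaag
Syvn1: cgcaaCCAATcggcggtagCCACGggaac

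Its boxes were common by themselves: CCACG was in 23 of 30 members and 32.8% of windows, and CCAAT in 24 of 30 and 37.4%. The letters TGACGTGG, a core that XBP1 and ATF6 can bind, were in 0 of 30 members and 0.676% of windows. The heat shock element, read as GAANNTTC on either strand, was found for 7 of 30 members and in 7.86% of windows. It was present for 0 of 13 ER and 0 of 8 ERAD members, 5 of 7 cytosolic members (Bag3, Dnaja1, Hspa1a, Hspa1b and Hsph1) and 2 of 2 mitochondrial members. The longer form, GAANNTTC followed by NNGAA, which contains the shorter one, was found for Hspd1, Hspe1 and Hsph1 and in 0.603% of windows. Hspd1 and Hspe1 are transcribed away from each other from neighbouring starts, and their windows hold the same site at chr1:55088059-55088081 (plus strand). The Hsph1 site lies at chr5:149636283-149636305 (plus strand), after the RefSeq start. The repeats of the long form are in capitals.
Hspd1 and Hspe1: ttctaGAAccTTCcgGAAggccc
Hsph1: gaggaGAActTTCcaGAAtctgc

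A match is a description of letters and does not show that a factor binds there. No window was matched for Manf, Hyou1, Atf6, Hspa8, Hsp90aa1, Hsp90ab1, Hsf1 and Hspa9.

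Levels between genes were compared per length, as CPM per kilobase of exon in the control library. The HSP90 gene Hsp90ab1 stood highest at 1529, followed by the constitutive HSP70 gene Hspa8 at 228. The ER folding genes Canx (151), Pdia6 (145), Calr (144), Pdia3 (130), Hsp90b1 (128) and P4hb (116) came next, in the same range as Hsp90aa1 (143). BiP, encoded by Hspa5, was at 76.9. The degradation genes Herpud1 and Syvn1 were at 74.2 and 71.7. The mitochondrial chaperones Hspd1, Hspe1 and Hspa9 stood at 125, 96.1 and 91.0. The sensors and their factor were low, with Eif2ak3 at 12.3, Atf6 at 12.02, Xbp1 at 6.08 and Ern1 at 2.65. The stress-inducible HSP70 gene Hspa1b was the lowest measured member, at 1.60. Only 14.5% of Hspa8 reads and 24.5% of Hsp90aa1 reads were uniquely placed. In unique exon reads, not divided by length, they were at 154.9 and 169.5 CPM in the control, against 845.6 for Canx. The ranks of Hspa8 and Hsp90aa1 thus rest on reads that also match elsewhere. Neighbours such as Pdia6, Calr and Hsp90aa1 lie close together, and with 1 library their order has no replicate check.

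**Figure D1:**
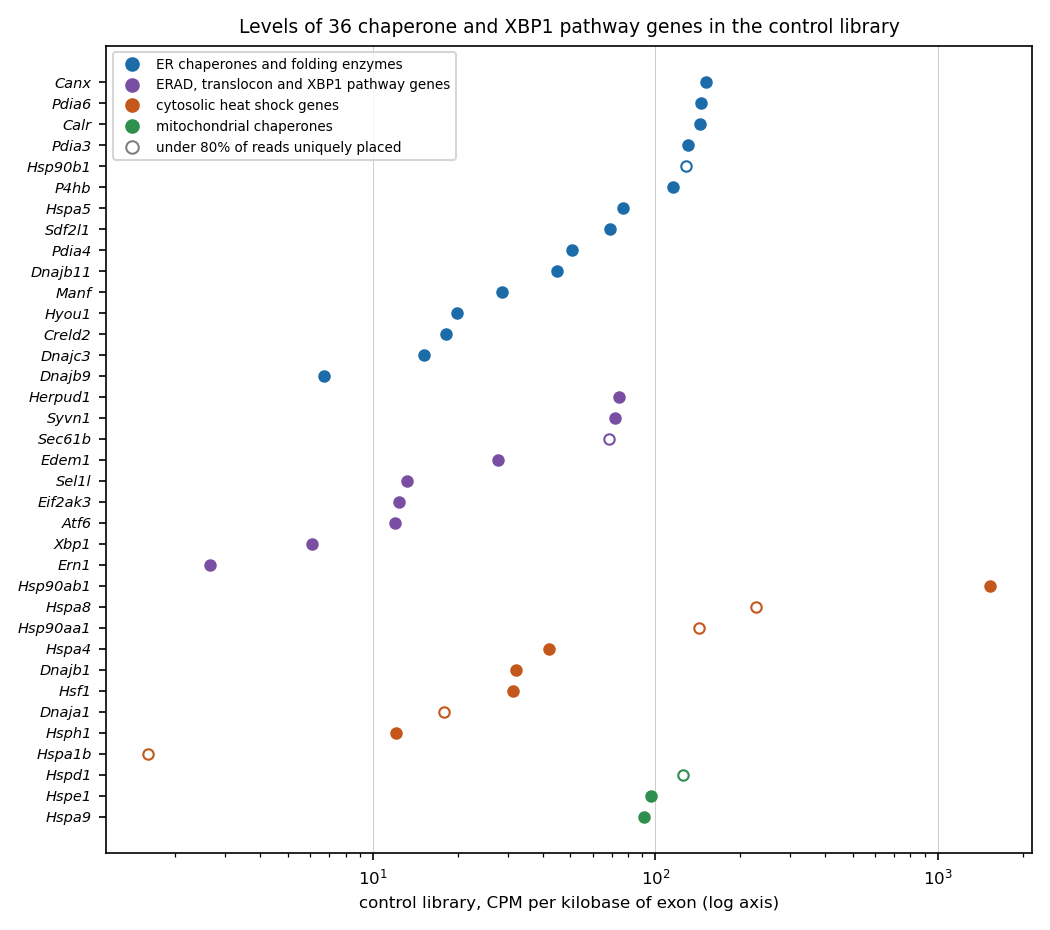
Level of the 36 measured members in the control library, as CPM per kilobase of exon on a log axis, ordered by level within each group (colours). Hsp90ab1 stands alone at 1529, most ER chaperones lie between 15.2 and 151, and open symbols mark genes with under 80% of their exon reads uniquely placed.

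A gene was called higher or lower when log2((CPM + 1)/(CPM + 1)) showed at least 2-fold and the higher library held at least 5 CPM. At this size 0 of 36 members were called in any comparison. Over all features that reach 5 CPM, 0.284% were called higher and 0.021% lower at 0.5 h, 0.641% and 0.21% at 1.5 h, and 0.336% and 0.399% at 5 h against control. Between 5 h and 1.5 h the shares were 0.0952% and 0.444%. At 1.5-fold, 1 member was higher at 0.5 h (Hspa1b, background 0.673%) and 1 at 5 h (Hspd1, background 2.21%). None was lower at 0.5 h, 1.5 h or 5 h, where 0.147%, 1.99% and 2.98% of features were, and none was higher at 1.5 h, where 3.37% were. Between 5 h and 1.5 h, 0 members passed 1.5-fold in either direction, with 1.3% of features higher and 2.12% lower. A count of 0 or 1 among 36 members is read here as no more than the background.

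Below those sizes, more members stood above control at 1.5 h than at the other times. CPM was above control for 17 of 36 members at 0.5 h, 27 of 36 at 1.5 h and 22 of 36 at 5 h, and above the 1.5 h library for 20 of 36 at 5 h. Of all measured features, 49.1%, 47.3%, 49.2% and 49% were above in the same order. The median log2 ratio of the 36 members to control was -0.01 at 0.5 h, 0.15 at 1.5 h and 0.09 at 5 h, against -0.0028, -0.0147 and -0.0048 for all measured features. The highest of the 4 libraries was the control for 6 members, 0.5 h for 5, 1.5 h for 11 and 5 h for 14. Over 9589 features with at least 5 CPM, the shares were 26.9, 19.4, 24.1 and 29.6%. The highest level was a median of 1.26 times the lowest for members and 1.22 times for those features. In total the 36 members took 1.25, 1.20, 1.24 and 1.26% of exon reads in the control, 0.5, 1.5 and 5 h libraries.

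**Figure D2:**
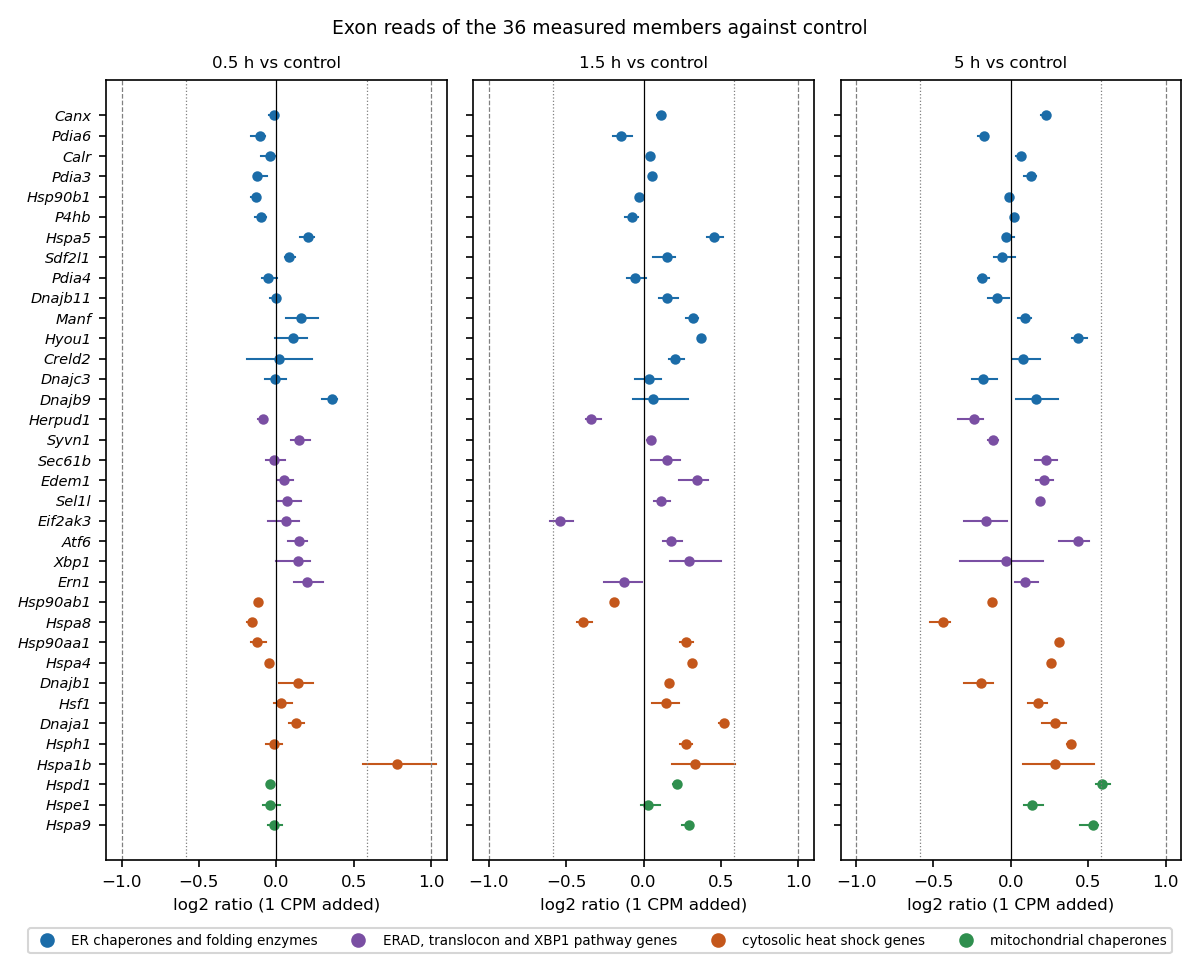
Log2 ratio of each measured member to control at 0.5, 1.5 and 5 h (1 CPM added to both libraries, total exon reads). Points are the summed lanes, lines run from the lowest to the highest of the 4 same-numbered lane ratios, and dotted and dashed lines mark 1.5-fold and 2-fold. Only the points of Hspa1b at 0.5 h and Hspd1 at 5 h lie past a dotted line.

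**Figure D3:**
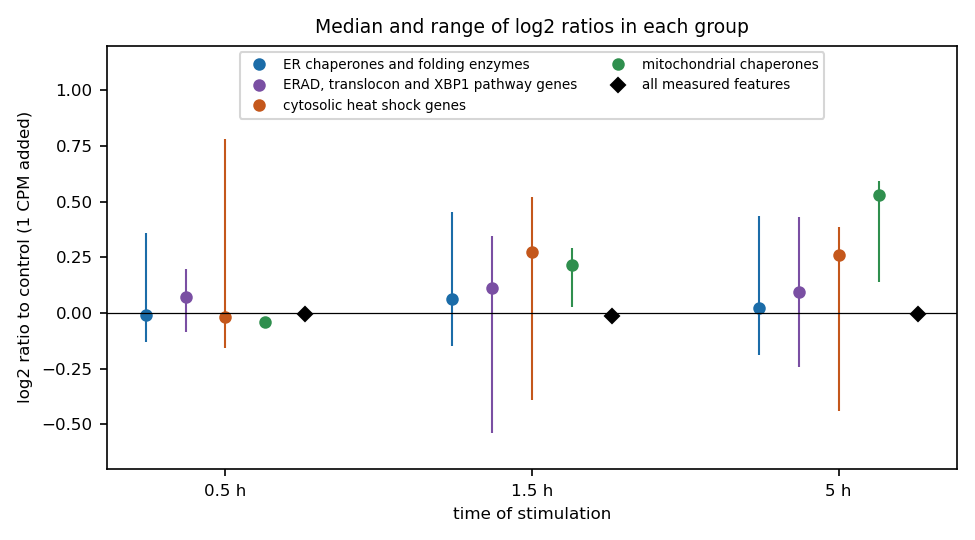
Median log2 ratio to control (points) and range over members (lines) for each group at 0.5, 1.5 and 5 h, with the median of all measured features as a diamond. The mitochondrial chaperones reach a median of 0.53 at 5 h, while the ER group stays between -0.01 and 0.06.

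Among the ER chaperones, Hspa5, Hyou1 and Manf had the highest ratios to control at 1.5 h, all under 1.5-fold. Hspa5 encodes BiP, the ER HSP70 that holds unfolded chains and keeps the sensors inactive, and lies at chr2:34771970-34776531 (mm10). It was at 270 CPM in the control, 312 at 0.5 h, 370 at 1.5 h and 265 at 5 h. The 1.5 h library was highest, 1.37 times control (1.33 to 1.41), and the 5 h library was at 0.980 times control (0.951 to 1.01) and 0.716 times the 1.5 h level (0.696 to 0.736). Hyou1 encodes an ER member of the HSP110 family that exchanges nucleotide on BiP. It was at 143, 154, 186 and 194 CPM in the same order, with the 5 h library highest at 1.36 times control (1.30 to 1.41). Manf, a secreted ER protein that binds BiP, was at 101, 113, 126 and 108 CPM, 1.25 times control at 1.5 h (1.20 to 1.31). So Hspa5 and Manf were highest at 1.5 h and Hyou1 at 5 h.

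Several cochaperones work with BiP. Dnajb9, a J-domain protein that targets BiP to IRE1 and to clients, was at 12.5, 16.4, 13.2 and 14.2 CPM, highest at 0.5 h at 1.31 times control (1.15 to 1.48). Sdf2l1, which works with J-domain proteins, was at 76.8, 81.5, 85.3 and 73.8 CPM. Creld2, an ER stress-inducible protein, was at 24.8, 25.0, 28.7 and 26.3 CPM. Sdf2l1 and Creld2 were highest at 1.5 h and Dnajb9 at 0.5 h, all within 1.31-fold of control. Dnajb11, a J-domain cochaperone of the ER lumen, was at 145, 145, 161 and 136 CPM. Dnajc3, known as p58IPK, was at 78.9, 78.5, 80.9 and 69.7 CPM. Both were highest at 1.5 h and lowest at 5 h, where Dnajc3 stood at 0.883 times control (0.834 to 0.935).

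The HSP90 of the ER, Hsp90b1, was at 516, 471, 506 and 511 CPM, with 62.4% of its reads uniquely placed. The lectin chaperones were flat to slightly higher: Canx was at 711, 704, 769 and 834 CPM and Calr at 414, 403, 427 and 434 CPM. Canx at 5 h was 1.17 times control (1.15 to 1.19) and Calr 1.05 times (1.02 to 1.07). The disulphide isomerases went in both directions. Pdia6 was at 541, 502, 488 and 479 CPM, 0.885 times control at 5 h (0.866 to 0.904). Pdia4 was at 126, 121, 121 and 110 CPM, and P4hb at 331, 310, 314 and 336 CPM. Pdia3, which pairs with calnexin and calreticulin, was at 409, 376, 425 and 448 CPM. Over the 15 ER genes, 6, 11 and 8 were above control at 0.5, 1.5 and 5 h, with medians of -0.01, 0.06 and 0.02 on the log2 scale. Their sum was 3901, 3811, 4100 and 4038 CPM, 1.05 times control at 1.5 h (1.04 to 1.06).

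At 1.5 h, ER genes with the element in their promoter had ratios on both sides of control. Of the ER genes with it, Hspa5 had the highest ratio of the group at 1.5 h (log2 0.45) and Pdia6 the lowest (-0.15), and Hsp90b1 was at -0.03 although it holds 2 sites. Calr, Canx, Dnajc3 and Creld2 were between 0.03 and 0.20. The ER genes with a window but no element, Pdia3, Pdia4, P4hb, Dnajb9, Dnajb11 and Sdf2l1, were between -0.08 and 0.15. Hyou1 (0.37) and Manf (0.32) had no window. Whether the element relates to these values was not tested.

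Of the sensors, PERK differed most. Eif2ak3 (chr6:70844515-70905245, mm10), the kinase that phosphorylates eIF2alpha, was at 67.0, 69.9, 45.8 and 60.0 CPM in the control, 0.5, 1.5 and 5 h libraries. The 1.5 h library was the lowest, 0.684 times control (0.640 to 0.730), the lowest ratio of any of the 36 measured members in any comparison, and the 5 h library was 1.31 times the 1.5 h level (1.22 to 1.40). Atf6, the sensor that is cut in the Golgi to release a transcription factor, was at 87.1, 96.4, 98.8 and 118 CPM, highest at 5 h at 1.35 times control (1.29 to 1.42). Ern1, which encodes IRE1, was at 21.7, 25.0, 19.7 and 23.2 CPM, with 1.16 times control at 0.5 h (1.05 to 1.28) and an interval that includes 1 at 1.5 and 5 h. Eif2ak3 and Ern1 thus had their highest library at 0.5 h and their lowest at 1.5 h, and Atf6 its highest at 5 h.

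Xbp1 itself (chr11:5520659-5525893, mm10) was at 19.8, 21.9, 24.4 and 19.3 CPM. It was highest at 1.5 h, 1.24 times control (1.11 to 1.37), and at 5 h its interval included 1 (0.978, 0.875 to 1.09). Its 4 values followed the order of Hspa5, with 1.5 h highest, 0.5 h next and control and 5 h close together. Sdf2l1 and the cytosolic Dnajb1 had the same order of libraries, and the Xbp1 interval at 0.5 h included 1 (1.11, 0.996 to 1.23). Edem1, a lectin that passes misfolded glycoproteins to ERAD, was at 162, 168, 206 and 188 CPM, 1.27 times control at 1.5 h (1.23 to 1.32). Herpud1, a membrane protein of the ERAD complex, was at 173, 163, 137 and 146 CPM, 0.788 times control at 1.5 h (0.758 to 0.820). So 2 genes of the same degradation route stood on opposite sides of control at 1.5 h. Sel1l and Syvn1 encode the adaptor and the ubiquitin ligase HRD1 of the main ERAD complex. Sel1l was at 113, 119, 122 and 129 CPM and Syvn1 at 342, 379, 353 and 316 CPM. Syvn1 was highest at 0.5 h and lowest at 5 h, while Sel1l was highest at 5 h, 1.14 times control (1.09 to 1.19). Sec61b, a subunit of the translocon channel, was at 86.8, 85.7, 96.3 and 102 CPM, with 70.5% of reads unique. Of these 9 genes 7, 6 and 5 were above control at 0.5, 1.5 and 5 h, with medians of 0.07, 0.11 and 0.09, and their sum stood at 1.05, 1.03 and 1.03 times control.

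**Figure D4:**
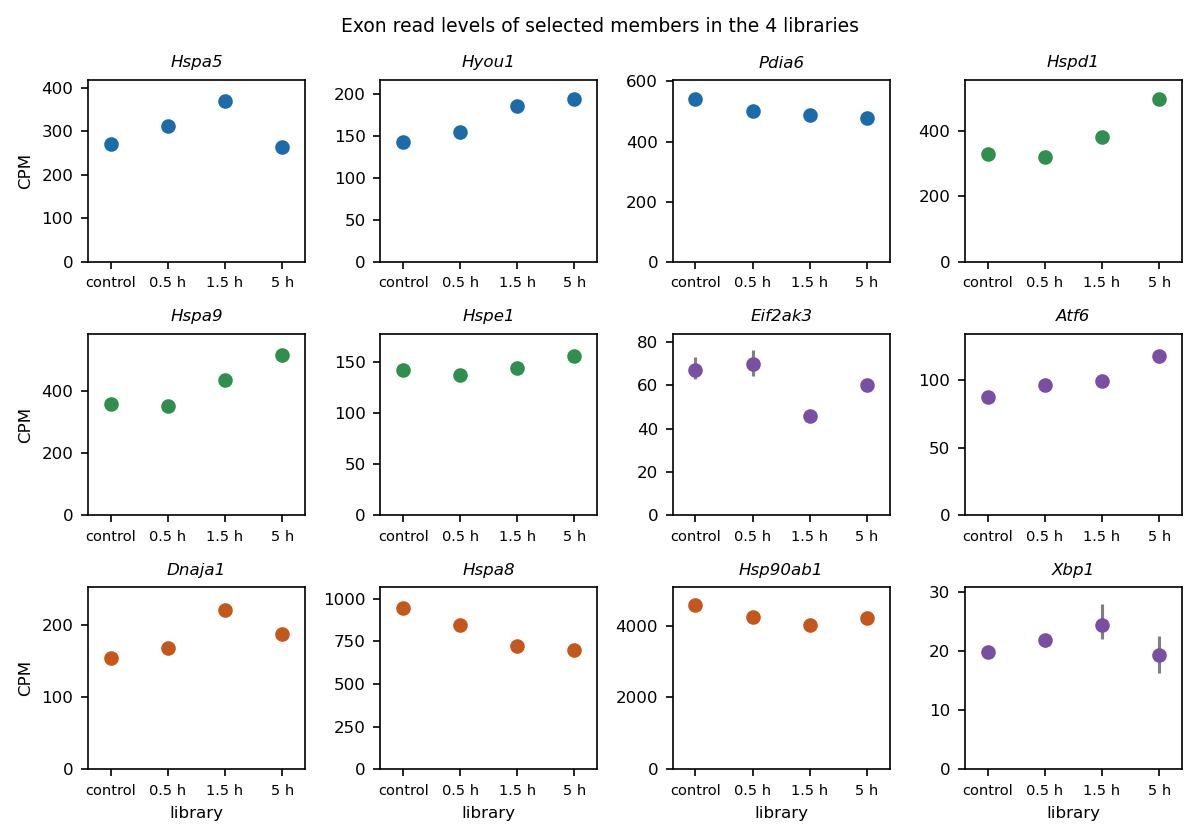
CPM of total exon reads (axes from 0) of 12 members in the control, 0.5, 1.5 and 5 h libraries; points are summed lanes, bars run from the lowest to the highest lane and are mostly hidden by the points. Hspa5 and Xbp1 are highest at 1.5 h, Eif2ak3 is lowest at 1.5 h, and Hspd1 and Hspa9 are highest at 5 h.

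The cytosolic group held the members with most reads, and its sum and its median went in different directions. Hsp90ab1, the constitutive HSP90, was at 4587, 4232, 4009 and 4222 CPM, and made up 68.4% of the group's control sum. Hspa8, the constitutive HSP70 known as HSC70, was at 946, 849, 722 and 697 CPM, 0.737 times control at 5 h (0.724 to 0.749). Both were highest in the control. Only 14.5% of Hspa8 reads were uniquely placed, and its value is uncertain for that reason. In unique reads it stood at 1.01, 0.815 and 0.736 times control at 0.5, 1.5 and 5 h, so the lower level at 0.5 h was not seen there.

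Hsp90aa1, Dnaja1, Hsph1, Hspa4, Hsf1 and Hspa1b were above control at both 1.5 and 5 h. For Hspa1b the intervals in unique reads included 1 at both times, 1.37 (0.919 to 2.06) and 1.41 (0.939 to 2.12). Hsp90aa1, the inducible HSP90, was at 563, 515, 680 and 700 CPM, with 24.5% of reads unique, and 1.24 times control at 5 h (1.22 to 1.27). In unique reads the 5 h ratio was 1.17. Dnaja1, a J-domain partner of HSC70, was at 154, 169, 222 and 188 CPM, 1.44 times control at 1.5 h (1.39 to 1.49), with 44.5% of reads unique and a ratio of 1.36 in those. The HSP110 genes, nucleotide exchange factors of HSP70, were also above control at 1.5 and 5 h. Hsph1 was at 84.9, 83.8, 103 and 111 CPM, 1.31 times control at 5 h (1.25 to 1.38). Hspa4 was at 232, 224, 289 and 278 CPM, 1.25 times control at 1.5 h (1.21 to 1.28). Dnajb1, the HSP40 induced by heat, was at 72.42, 79.97, 81.33 and 63.23 CPM and so below control at 5 h, at 0.873 times (0.822 to 0.927). Hsf1, the factor that drives heat shock genes, was at 63.0, 64.4, 69.8 and 71.3 CPM, 1.13 times control at 5 h (1.07 to 1.20).

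The heat-inducible HSP70 genes were at low levels in every library. Hspa1b was at 4.49, 8.42, 5.92 and 5.69 CPM, highest at 0.5 h at 1.88 times control (1.54 to 2.30). In unique reads, 29.3% of its total, the ratio was 1.61, and the 1.5-fold size was then missed after adding 1 CPM. Its near copy Hspa1a was at 0.116, 0.384, 0.582 and 0.228 CPM with 9.30% of reads unique, so reads of the pair cannot be assigned with confidence. Bag3, an HSP70 cochaperone induced by stress, was at 0.0290, 0.0591, 0.0613 and 0 CPM, under the level that a count of 0 allows in every library. These 2 genes were the members under 1 CPM and entered no count of levels or ratios. Of the 9 measured cytosolic genes 4, 7 and 6 were above control at 0.5, 1.5 and 5 h. Their median log2 ratios were -0.02, 0.27 and 0.26, while the sum stood at 0.928, 0.922 and 0.945 times control. The median at 1.5 h was 0.16 with unique exon reads, and at 5 h 0.17 with 5 CPM added. Without Hsp90ab1 the sum stood at 0.941, 1.02 and 0.997 times control.

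The mitochondrial chaperones had the largest group ratio. Hspd1 (chr1:55077835-55088243, minus strand, mm10) encodes HSP60, the chaperonin of the mitochondrial matrix. It was at 330 CPM in the control, 320 at 0.5 h, 383 at 1.5 h and 498 at 5 h, 1.51 times control at 5 h (1.47 to 1.55). The 5 h library was the highest and 1.30 times the 1.5 h level (1.27 to 1.33). Only 40.8% of its reads were unique, and in those the 5 h ratio was 1.52. On the log2 scale with 1 CPM added it stood at 0.59, just past 1.5-fold, and fell short with total gene reads and without the fourth lane. Hspa9 encodes mortalin, the mitochondrial HSP70 that pulls proteins through the import channel. It was at 358, 353, 438 and 518 CPM, 1.45 times control at 5 h (1.41 to 1.48), with 93.9% of reads unique. Hspe1, whose HSP10 caps HSP60, was at 142, 138, 145 and 156 CPM, 1.10 times control at 5 h (1.06 to 1.15). All 3 were lowest at 0.5 h and highest at 5 h, but the partners HSP60 and HSP10 differed in size. The sum of the group was 829, 811, 965 and 1171 CPM, 1.41 times control at 5 h (1.39 to 1.43). Over all features with at least 5 CPM, 29.6% had their highest level at 5 h. The 5 h library also had the fewest reads and the lowest pre-B marker sum, although the pre-B marker Pax5 was above control then. Itgam was at its lowest there too, at 35.9 CPM against 69.0 in the control. The part of these in the result was not tested.

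Reads inside a gene's span but outside its exons, which are mostly intronic in a gene without overlapping neighbours, gave a second readout of the same genes. They are total gene reads minus total exon reads, scaled to CPM of total exon reads, and 31 members and 9482 features had at least 1 CPM of them in any library. For Hspd1 they were at 5.15, 6.23, 15.1 and 7.90 CPM, and the 1.5 h library was highest, 2.93 times control (2.46 to 3.49). Hspd1 was the only member of 19 at 5 CPM or more that passed 2-fold at 1.5 h, where 2.15% of 6610 features did. None was lower by 2-fold then, where 0.318% were. At 0.5 h 0 of 18 members passed 2-fold, with 0.339% of features higher and 0.0771% lower, and at 5 h 0 of 20, with 0.425% and 0.0608%. Between 5 h and 1.5 h 0 of 21 did, with 0.298% and 0.536%. In unique reads the ratio was 2.90. The highest library for reads outside exons was thus 1.5 h, and for exon reads 5 h.

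The other mitochondrial chaperones had the same order of libraries at 1.5 and 5 h. For Hspe1 reads outside exons were at 1.04, 1.92, 3.34 and 1.50 CPM, 3.20 times control at 1.5 h (2.18 to 4.81), below the 5 CPM needed for a call. For Hspa9 they were at 8.95, 8.68, 14.5 and 11.4 CPM, 1.62 times control at 1.5 h (1.40 to 1.87). All 3 were higher at 1.5 h than at 5 h, and their sum was 2.17 times control at 1.5 h (1.95 to 2.42) and 1.37 times at 5 h (1.22 to 1.55). The Hspd1 and Hspe1 spans overlap from position 55088132 to 55088243 on opposite strands, and the labels do not say whether counting used strand.

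At 1.5-fold, 4 of 19 members passed upward at 1.5 h (Sec61b, Hsf1, Hspd1 and Hspa9), against 9.61% of features, and none downward, against 2.8%. Hsf1 was at 6.17, 6.82, 10.4 and 6.02 CPM outside exons, 1.68 times control at 1.5 h (1.42 to 2.01), while its exon reads stayed within 1.13 times control. Sec61b was at 3.13, 4.49, 5.30 and 3.12 CPM, 1.70 times control (1.33 to 2.18). At 5 h against 1.5 h, 3 of 21 members (Sec61b, Hsf1 and Hspd1) were lower by 1.5-fold, against 3.36% of features, and none was higher, against 4.72%. None of 20 passed 1.5-fold at 5 h against control, where 3.48% were higher and 0.668% lower.

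Herpud1 and Eif2ak3 were low outside exons at 0.5 h. Herpud1 was at 6.26, 2.89, 5.33 and 4.94 CPM outside exons, 0.463 times control at 0.5 h (0.361 to 0.590). Once 1 CPM is added, this ratio falls short of 2-fold (log2 -0.90). Herpud1 was the only one of 18 members lower by 1.5-fold, against 0.633% of features, and none was higher, against 1.73%. Its exon reads were at 0.944 times control then and 0.788 times at 1.5 h. For Eif2ak3 reads outside exons were at 15.7, 11.6, 14.1 and 16.0 CPM, 0.739 times control at 0.5 h (0.648 to 0.844), and its exon reads were lowest at 1.5 h. For both genes the low value outside exons came 1 sampled time before the low value on exons, as the high value did for Hspd1 and Hspa9. These genes were picked out after their values were seen, and with 1 library per time this order has no replicate check.

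Atf6 and Edem1 were above control outside exons at all times. Atf6 was at 10.1, 13.1, 15.5 and 15.4 CPM, 1.53 times control at 1.5 h (1.33 to 1.76). Edem1 was at 10.7, 15.3, 16.1 and 14.0 CPM, 1.50 times control (1.31 to 1.72). Both fall just short of 1.5-fold once 1 CPM is added. Hspa5 and Xbp1 had under 1 CPM outside exons in every library, so their higher exon level at 1.5 h has no such second readout. Of the 31 members, 24, 25 and 20 were above control at 0.5, 1.5 and 5 h, against 51.3%, 58.8% and 74.4% of features. At 5 h against 1.5 h 8 of 31 were above, against 59.1%. The ER sum of 1.23 times control at 1.5 h was 67.4% Manf in the control, whose span overlaps Dcaf1 and Rbm15b, and was 1.17 times without it. Only 434 of the 5469 Manf reads outside exons in the control were unique. In unique reads Manf was at 1.17 times control at 1.5 h (1.02 to 1.33), against 1.26 in total reads.

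**Figure D5:**
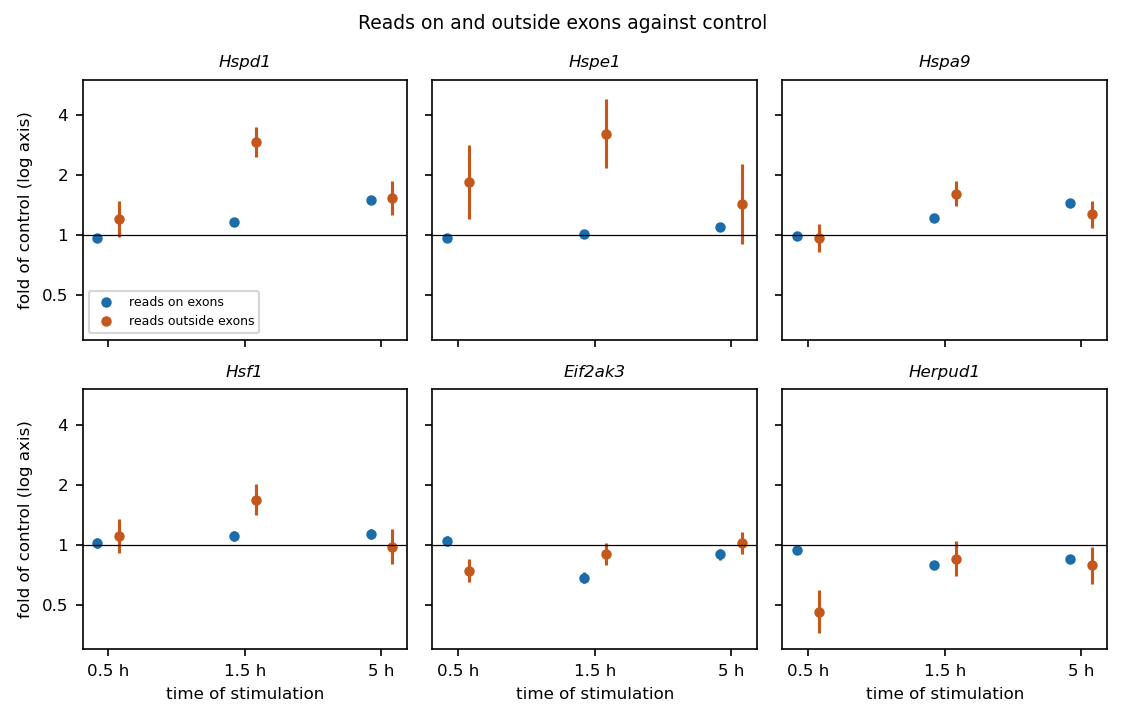
Fold of control (log axis) for reads on exons (blue) and outside exons (orange) of 6 members at 0.5, 1.5 and 5 h, with exact 95% counting intervals as bars; the axis is shared, and the bars of exon reads are mostly hidden by the points. Outside exons Hspd1 reaches 2.93 at 1.5 h and Herpud1 0.463 at 0.5 h, while on exons Hspd1 is at 1.16 and Herpud1 at 0.944.

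Other genes of the same pathways were listed by function, and up to 3 of each list are named, those with the largest ratios. No gene of ER folding and glycosylation passed 2-fold among 21 measured of 23, and 1 passed 1.5-fold, higher at 5 h, against 2.21% of features. This was Dad1, a subunit of the oligosaccharyltransferase, at 56.6, 63.0, 73.8 and 87.4 CPM, 1.55 times control at 5 h (1.46 to 1.64). Mogs, the glucosidase that trims the first sugar of the N-glycan, was at 75.4, 77.9, 103 and 111 CPM, and Stt3a, the catalytic subunit of the transferase, at 202, 202, 237 and 285 CPM. These N-glycosylation genes were highest at 5 h, as Canx was, but they were picked by the size of their ratios. In the whole list 14 genes were above control at 5 h and 7 below. Their list had medians of -0.01, 0.03 and 0.08 at 0.5, 1.5 and 5 h.

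No gene of the other ERAD and sensor list passed 1.5-fold among 19 measured of 21, and its medians were 0.02, 0.01 and 0.10. The ubiquitin-conjugating enzyme Ube2g2 was at 51.4, 53.8, 67.5 and 56.9 CPM, Vimp at 34.6, 35.1, 43.6 and 36.5 CPM and Wfs1 at 7.33, 7.83, 6.68 and 5.85 CPM. Of translocation and export genes, 1 of 26 measured of 27 passed 1.5-fold, lower at 5 h, against 2.98% of features. It was Sec24d, a COPII coat subunit, at 14.2, 14.5, 12.2 and 8.36 CPM, 0.588 times control at 5 h (0.504 to 0.685). Tmed2, a cargo receptor, was at 189, 181, 227 and 258 CPM, and Sec61g, a translocon subunit beside Sec61b, at 16.1, 11.8, 14.0 and 15.6 CPM.

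Among 21 measured of 25 other cytosolic chaperones, 1 passed 1.5-fold, higher at 1.5 h, against 3.37% of features, and at 5 h, against 2.21%. A count of 1 in this list and in the lists above is read as no more than the background. The gene was Hspa4l, an HSP110 gene like Hspa4 and Hsph1, at 47.1, 51.3, 82.2 and 84.6 CPM, 1.75 times control at 1.5 h (1.64 to 1.86) and 1.798 times at 5 h (1.69 to 1.91). Cacybp was at 63.5, 59.5, 82.4 and 93.4 CPM and St13, an HSP70 cofactor, at 259, 253, 304 and 363 CPM. The list's medians were -0.03, 0.18 and 0.12. So all 3 cytosolic HSP110 genes were above control at 1.5 and 5 h. In the chaperonin CCT and prefoldin list 0 of 13 measured of 14 passed 1.5-fold, with medians of -0.08, 0.03 and 0.13. Cct8 was at 458, 430, 479 and 572 CPM, Cct3 at 279, 273, 308 and 344 CPM and Cct6a at 167, 158, 185 and 204 CPM. These subunits of the cytosolic chaperonin had the same order of libraries as Hspd1, lowest at 0.5 h and highest at 5 h. They too were picked by the size of their ratios, and in the whole list 9 genes were above control at 5 h and 4 below.

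Of 15 other mitochondrial chaperones and proteases 0 passed 1.5-fold, and 8, 11 and 12 were above control at 0.5, 1.5 and 5 h, with medians of 0.00 (0.0032), 0.06 and 0.15. Trap1, the mitochondrial HSP90, was at 239, 240, 244 and 297 CPM, 1.24 times control at 5 h (1.20 to 1.28). Afg3l2, an inner membrane protease, was at 63.3, 58.3, 72.1 and 77.9 CPM, and Dnaja3, the J-domain partner of mortalin, at 79.1, 73.5, 83.7 and 96.8 CPM. The mortalin and HSP60 ratios at 5 h, 1.45 and 1.51, were above the highest of this list. The ratio of Hspe1, 1.10, was not, and stood close to the list's median fold of 1.11.

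The ATF4 branch, downstream of PERK and of other eIF2alpha kinases, held 2 calls at 2-fold. Of its 11 measured genes of 13, 1 was called higher at 0.5 h, against 0.284% of features, and 1 lower at 5 h, against 0.399%. At 1.5-fold Atf4 was also higher at 1.5 h, against 3.37%, and Chac1 lower at 5 h (log2 -0.78), against 2.98%. Ppp1r15a, the phosphatase subunit that reverses eIF2alpha phosphorylation and also an early response gene, was at 20.6, 50.3, 26.7 and 21.6 CPM, 2.44 times control at 0.5 h (2.24 to 2.67). Trib3, a pseudokinase target of ATF4, was at 22.7, 21.0, 16.0 and 9.82 CPM, 0.433 times control at 5 h (0.378 to 0.495). Atf4 itself was at 237, 314, 422 and 268 CPM, 1.78 times control at 1.5 h (1.73 to 1.83). Between 1.5 h and 5 h, 7 of 11 genes of this list were lower by 1.5-fold (Atf4, Ddit3, Trib3, Chac1, Sesn2, Nupr1 and Atf3), against 2.12% of features, and 0 of 36 chaperone and XBP1 pathway members were. The highest Atf4 level and the lowest Eif2ak3 level were thus in the same library, at 1.5 h.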

How the data were processed

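Per the labels' protocols, poly(A) RNA was made into libraries with 1 of 2 kits, TruSeq or NEBNext, without saying which was used for which library, and read on an Illumina HiSeq. The submitters' processing notes name CASAVA 1.8.2 and mm10. For the aligner, the counting program and its use of strand, nothing is given in the sources used here. The deposited tables hold counts of total and unique exon reads and of total and unique gene reads per gene and lane, not normalized, per the file headers, and 0 columns were left unmatched to a sample. The authors' RPKM was planned for levels between genes. It is written with decimal commas, so CPM of exon reads was divided by the deposited exon length instead.

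Counts of 4 lanes were summed per condition and scaled to CPM of total exon reads. Ratios, call sizes and intervals are defined where they are first used, and features with at least 1 CPM in any condition counted as measured. Members and lists were chosen with earlier results of these data known, and no result here is independent support of those. All members are named, with up to 3 genes of each other list, those with the largest log2 ratio to control among genes with at least 5 CPM. Alternatives were unique exon reads, total gene reads, TMM factors (edgeR 4.0.16), DESeq2 1.42.0 size factors, pseudocounts of 0.1 and 5 CPM, other floors and sizes, each lane left out, and lanes as a block. Sums without their largest gene, sums outside exons without Manf, and unique reads outside exons were added after seeing the data. Spans overlapping other genes were found in GENCODE vM21. Software was R 4.3.3 and Python 3.11.15, with scipy 1.17.1, matplotlib 3.10.9, numpy 2.4.6 and pandas 2.3.3.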

Additional observations from a re-analysis of the deposited data

How the results depend on the processing

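Of 240 group medians recomputed, 238 stayed within the interval over members. This interval runs between member ratios on either side of the median, so its width is the spread between genes. At 1.5 h it ran from -0.0286 to 0.2045 for the ER group. For the ERAD, translocon and XBP1 group it ran from -0.3408 to 0.2914. Where it is this wide, staying within it does not show that the processing had little effect. Of 1584 member ratios, 1562 stayed within their counting interval, and 118 of 120 counts of called members were the same. The main counts were all 0, so the stricter settings, 4-fold and a floor of 20 CPM, could not change them. For the 3 mitochondrial chaperones the interval is the full range over members. At 0.5 h that range was narrow, -0.0424 to -0.0181, and the medians outside an interval were all of this group and time. The median of the mitochondrial chaperones at 0.5 h was -0.0450 with DESeq2 size factors, against -0.0419, and ranged from -0.0436 to -0.0337 with each lane left out. Over the alternatives the ER median ranged from 0.0478 to 0.1044 at 1.5 h, highest without the fourth lane, and from 0.0025 to 0.0390 at 5 h, and the cytosolic median from 0.1566 to 0.2939 at 1.5 h. With a ratio of 1.5-fold in place of 2-fold, 1 member was called higher at 0.5 h and 1 at 5 h. The call of Hspa1b at this size was lost with unique exon reads and with 5 CPM added, and that of Hspd1 with total gene reads and without the fourth lane. Unique exon reads turned the sign of Hspa8 at 0.5 h, from -0.16 to 0.01 (0.0104), and moved Hsp90aa1 at 1.5 h from 0.27 to 0.15; the cause was not tested. Lane numbers name lanes of 1 library, not pairs of cultures. With the lanes as a replicate block the medians at 5 h were 0.0939 for all members and 0.5303 for the mitochondrial chaperones, and the block changed no call. Unique placement limits Hspa8, Hspa1b, Hspa1a, Hsp90aa1, Dnaja1 and Hspd1, and the single library per condition limits every ratio.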
